A study of Rattus norvegicus with 61 samples.

Results

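The calcium store channels and pumps are the genes for the proteins that release calcium from the endoplasmic reticulum and those that clear it from the cytosol. They were described here as read counts in the cerebellum and striatum of male adolescent Sprague-Dawley rats. The 8 members were listed by name: the ryanodine receptors Ryr2 and Ryr3, the inositol trisphosphate (IP3) receptors Itpr1 and Itpr2, the reticulum pumps Atp2a2 and Atp2a3, and the plasma membrane pumps Atp2b1 and Atp2b2. Of these, 7 had counts among the 14129 genes of the cerebellar table and the 14231 of the striatal table, and Ryr3 is not analysed here. The rats received an implant under the skin on postnatal day 28 and carried it for 28 days. Implants held the hydroxylated polychlorinated biphenyl 4-OH-PCB52 at 0% (sham), 1% (low), 5% (medium) or 10% (high). The cerebellum had 7 sham libraries and 8 each at low, medium and high loading. The striatum had 8 sham, 6 low, 8 medium and 8 high libraries. The submitters' design states 6 rats per exposure group, fewer than the libraries present in most groups. Each library carries a rat number of its own within its region, is taken as 1 rat and is named below by region, group and rat number, as in cerebellum sham 48.

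Release from the store runs through both receptor families. IP3 receptors open on IP3, which phospholipase C makes after activation of Gq-coupled receptors, and ryanodine receptors open on calcium itself. The reticulum pumps (SERCA) refill the store and the plasma membrane pumps (PMCA) export calcium from the cell. Purkinje cells, the output neurons of the cerebellar cortex, are known for very abundant IP3 receptor type 1. Ryanodine receptors are known targets of ortho-substituted polychlorinated biphenyls, which make the channel open more readily. That action is on the protein, whereas the counts here measure RNA.

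The promoters of the 4 members that differed most clearly between the regions are shown first, because they are the regulatory sequence next to those transcripts. Each runs from 250 bases before to 50 bases after the gene start in the rat GRCr8 build of RefSeq, 5′ to 3′ on the strand of the gene. Capitals mark the GC box letters GGGCGG or their reverse complement, and overlapping matches were each counted. Atp2a3 lies at chr10:58080402-58080701 on the plus strand, Itpr1 at chr4:142743190-142743489 on the plus strand, Itpr2 at chr4:181134818-181135117 on the minus strand and Atp2b1 at chr7:35622211-35622510 on the plus strand.
Atp2a3: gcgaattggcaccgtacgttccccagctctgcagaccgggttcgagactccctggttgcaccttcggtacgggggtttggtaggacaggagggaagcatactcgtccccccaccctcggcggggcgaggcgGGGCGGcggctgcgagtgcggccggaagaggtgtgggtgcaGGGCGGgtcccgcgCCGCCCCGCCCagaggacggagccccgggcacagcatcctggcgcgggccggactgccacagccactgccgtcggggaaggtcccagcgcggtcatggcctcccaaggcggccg
Itpr1: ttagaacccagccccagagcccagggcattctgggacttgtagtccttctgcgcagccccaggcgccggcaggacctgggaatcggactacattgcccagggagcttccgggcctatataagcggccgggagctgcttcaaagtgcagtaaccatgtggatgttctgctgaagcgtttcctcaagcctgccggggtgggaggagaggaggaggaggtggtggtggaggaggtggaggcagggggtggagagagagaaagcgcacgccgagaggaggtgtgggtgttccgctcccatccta
Itpr2: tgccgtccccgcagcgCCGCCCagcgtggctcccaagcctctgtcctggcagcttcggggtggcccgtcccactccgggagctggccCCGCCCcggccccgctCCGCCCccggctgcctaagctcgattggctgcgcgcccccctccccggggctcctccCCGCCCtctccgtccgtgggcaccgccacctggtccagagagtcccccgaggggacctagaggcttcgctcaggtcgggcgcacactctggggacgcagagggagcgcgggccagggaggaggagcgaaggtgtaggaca
Atp2b1: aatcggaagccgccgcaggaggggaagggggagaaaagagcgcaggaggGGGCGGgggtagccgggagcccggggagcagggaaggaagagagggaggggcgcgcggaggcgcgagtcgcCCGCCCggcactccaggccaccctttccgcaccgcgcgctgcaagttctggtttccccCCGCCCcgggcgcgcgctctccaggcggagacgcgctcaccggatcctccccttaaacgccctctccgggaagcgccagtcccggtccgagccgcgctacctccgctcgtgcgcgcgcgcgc
The Atp2a3 and Itpr2 windows held 4 GGGCGG matches each, counting both strands, and that of Atp2b1 held 3. The Itpr1 window held 0. Ryr2, Atp2a2 and Atp2b2 held 3 each, so 6 of the 7 measured members had the motif, against 33.06% of 33469 promoters in the same RefSeq table. CG dinucleotides numbered 13 in the Itpr1 window and 28 to 52 in the windows of the other measured members, against a median of 7 over all promoters. The nuclear receptor half-site AGGTCA matched once, in Ryr2, and is found in 16.18% of promoters. TATAAA, found in 14.22% of promoters, and the cyclic AMP response element TGACGTCA, found in 1.829%, matched none of the 7. The E-box letters CANNTG matched Ryr2, Itpr1, Itpr2 and Atp2a2 once each and are found in 72.1% of promoters. These matches describe letters and were not tested for binding.

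Library totals ran between 5420458 and 10994625 counts in the cerebellum and between 5850199 and 10944066 in the striatum. Raw reads per library differed widely between members. Itpr1 had a median of 26826 reads in a cerebellar library, whereas Itpr2 had a median of 144 (20 to 230) in the cerebellum and Atp2a3 a median of 68.5 (28 to 242) in the striatum. Several libraries stood apart from the rest of their region, by more than 1 log2 unit from the regional median in the mean level of 75 ribosomal protein genes or of the region's own neuron genes. They were 10 of 31 cerebellar libraries (1 sham, 2 low, 4 medium and 3 high) and 8 of 30 striatal libraries (2 sham, 1 low, 2 medium and 3 high). The mean log2 CPM of the ribosomal protein list had a range of 7.09 to 11.9 in the cerebellum and 7.45 to 9.62 in the striatum. The library labelled cerebellum low 22 lacked the markers of its region: its Purkinje list stood at 3.64 mean log2 CPM, against a cerebellar median of 7.37. The striatal range was 3.78 to 4.30, but list means were scaled within each region, so values of different regions compare only roughly. The library striatum sham 17 was low in striatal projection neuron genes (4.94, against a striatal median of 8.86) and high in the choroid plexus list (7.58, against 0.83). Results that rest on these libraries are given below with and without them. The choice used neuron genes that differ between the regions, so region differences without these libraries are not an independent test.

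**Figure D1:**
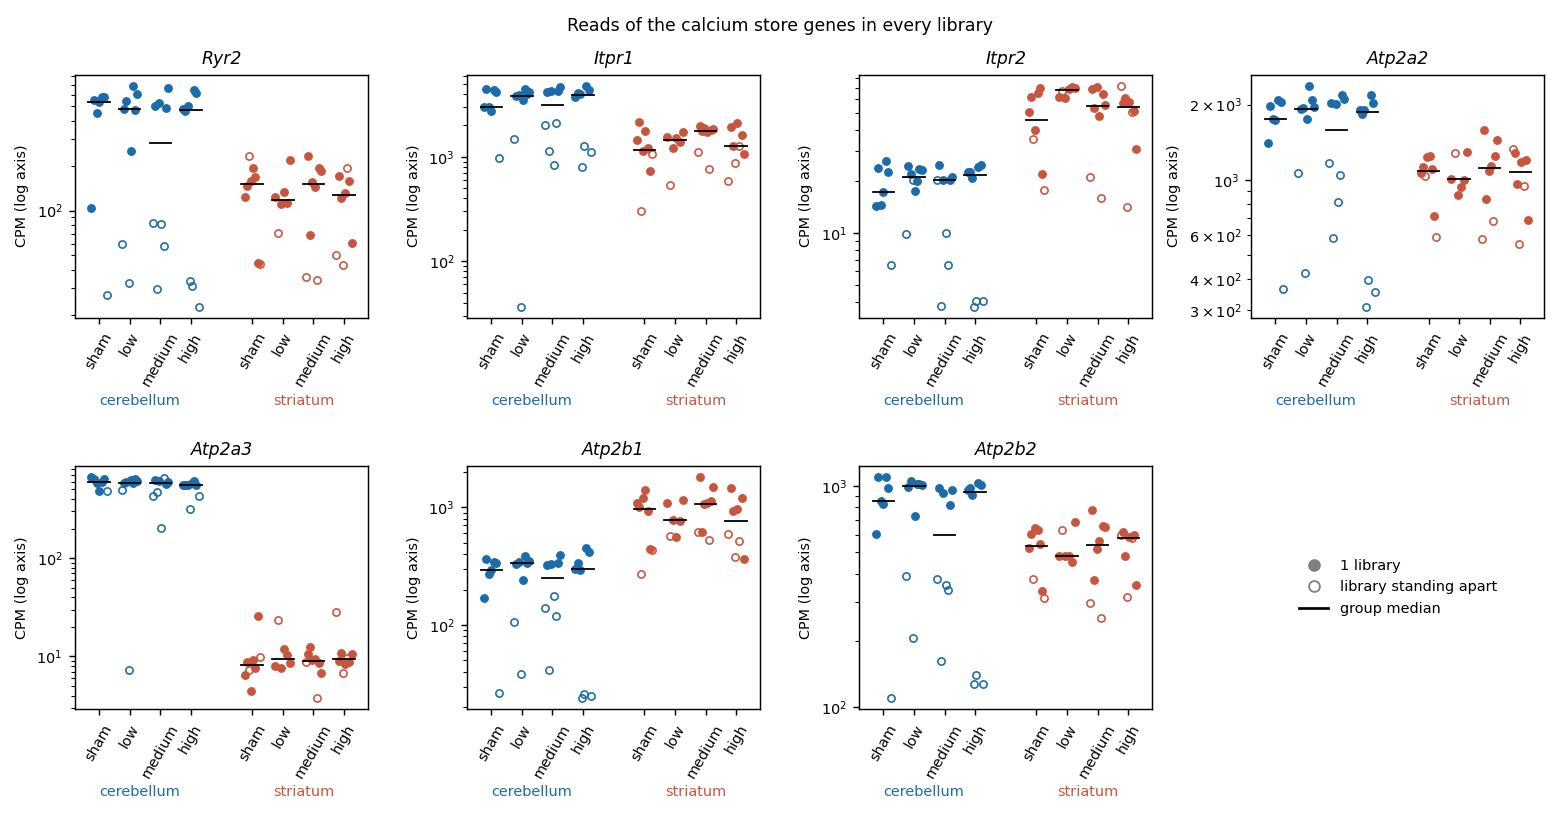
CPM (log axis) of the 7 measured members in every library, by region and exposure group, with a line at each group median and open circles for libraries standing apart. Atp2a3 separated the regions in all but 1 cerebellar library, and open circles in the cerebellum mostly lay under the filled ones.

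Among sham rats, 3 members were higher and 2 were lower in the cerebellum than in the striatum. The main fit of both regions had no term for the rat, although 29 rats of all groups gave both. Levels are CPM, reads scaled to a common library total with all 61 libraries scaled together, and differences are log2 fold changes of cerebellum over striatum with their standard error, from edgeR's quasi-likelihood test with Benjamini-Hochberg adjustment over 12616 genes. Of all genes tested, 43% passed the threshold of an adjusted p under 0.05 in this comparison (22.1% higher and 20.9% lower), against 5 of 7 members. Calls between the regions were thus frequent among all genes, and the count of members was not tested against them. The regions differ in their cells: 14 of 14 granule cell and 14 of 16 Purkinje cell markers were higher in sham cerebellum, and 23 of 23 striatal projection neuron markers, 10 of 10 oligodendrocyte markers and 8 of 10 microglial markers were lower. In such tissue pieces, more cells of a type and more RNA per cell cannot be told apart, and the part of cell makeup in the differences was not tested.

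The reticulum pump Atp2a3 (SERCA3), whose protein is known from rat Purkinje cells, had the largest difference of the 7 members. In sham cerebellum its level had a lowest value of 484, a median of 594 and a highest value of 671 CPM, against 4.48, 8.19 and 25.8 CPM in sham striatum. All 7 cerebellar libraries lay above all 8 striatal ones. The log2 fold change was 5.88 ± 0.44 (adjusted p = 4.75e-16), and it was 5.44, 5.88 and 5.48 at low, medium and high loading. Ranges of CPM that do not overlap were found for 17.5% of genes over all sham libraries. Across all exposures 30 of 31 cerebellar libraries exceeded every striatal library, and the exception was cerebellum low 22 at 7.28 CPM, a level inside the striatal range.

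Atp2a2 (SERCA2), the reticulum pump of most cells, showed a much smaller difference that did not pass the test. It averaged 1624 ± 603 CPM in sham cerebellum and 1012 ± 237 CPM in sham striatum (SD, n = 7 and n = 8), a log2 fold change of 0.67 ± 0.35 (adjusted p = 0.115). The lowest cerebellar library, cerebellum sham 48, stood at 363 CPM, and the other cerebellar sham libraries lay between 1409 and 2087 CPM. Without cerebellum sham 48 the adjusted p was 0.0382. Without all libraries standing apart the log2 fold change was 0.76 ± 0.13 and passed the test, and the ranges of the regions did not overlap in any exposure group, as for 34.7% of genes in sham.

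Itpr1, the main IP3 receptor of neurons, was higher in sham cerebellum. Its lowest, median and highest levels were 966, 3033 and 4479 CPM in sham cerebellum, against 302, 1174 and 2133 CPM in sham striatum. The lowest value of each region belonged to a library standing apart, cerebellum sham 48 and striatum sham 17, and 6 of 7 cerebellar libraries exceeded every striatal one. The log2 fold change was 1.40 ± 0.45 (adjusted p = 0.00934), and 1.36 ± 0.16 without libraries standing apart. At low and high loading it was 1.25 and 1.18 and passed the test, and at medium loading it was 0.85 and did not (adjusted p = 0.116). With a term for the rat it still passed in sham, at 1.42 (adjusted p = 0.0270), but not at low (1.10, adjusted p = 0.168) or high loading (1.01, adjusted p = 0.0892).

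Itpr2, the IP3 receptor best known from astrocytes and other glia, went the other way. In sham cerebellum its lowest, median and highest levels were 6.53, 17.4 and 26.3 CPM, against 17.9, 45.1 and 69.3 CPM in sham striatum. The regions overlapped, with 4 of 7 cerebellar libraries under every striatal one. The log2 fold change was -1.34 ± 0.39 (adjusted p = 0.00363), and -1.73, -1.66 and -1.63 at low, medium and high loading. Of the astrocyte markers, 2 of 14 were higher and 6 were lower in sham cerebellum, and their part in the Itpr2 difference was not tested.

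Ryr2, a ryanodine receptor shared by heart and brain, was higher in sham cerebellum at the edge of the threshold. Its levels there were 104, 554, 455, 537, 576, 577 and 27.1 CPM, and those in sham striatum were 124, 146, 232, 157, 194, 167, 44.5 and 43.7 CPM. In the cerebellum 5 of 7 libraries exceeded every striatal one, and cerebellum sham 48 lay under all of them. The log2 fold change was 1.53 ± 0.64 (adjusted p = 0.0471). It kept its call without cerebellum sham 1, cerebellum sham 48, striatum sham 17 or striatum sham 32, and lost it without any 1 of the other 11 sham libraries, with adjusted p up to 0.0918. With a term for the rat it was 1.03 (adjusted p = 0.124). Without libraries standing apart it was 1.74 ± 0.30 and passed the test. At low, medium and high loading the log2 fold change was 1.60, 1.20 and 1.59, with adjusted p of 0.0633, 0.119 and 0.0270; with the rat term these became 0.0335 at low and 0.161 at high loading.

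The plasma membrane pumps differed in direction between themselves. Atp2b1 (PMCA1), found in nearly all cell types, had lowest, median and highest levels of 26.6, 293 and 364 CPM in sham cerebellum, against 270, 975 and 1395 CPM in sham striatum. Its log2 fold change was -1.72 ± 0.52 (adjusted p = 0.00572), and -1.64, -2.18 and -1.78 at low, medium and high loading, all past the threshold. Atp2b2 (PMCA2), a neuronal pump whose loss causes ataxia and deafness in mice, averaged 795 ± 347 CPM in sham cerebellum and 497 ± 136 CPM in sham striatum (SD, n = 7 and n = 8). Its log2 fold change of 0.67 ± 0.40 did not pass the test (adjusted p = 0.177). Without libraries standing apart it was 0.72 ± 0.15 and passed, as did all 7 members in each of the 4 exposure groups, where 67.3, 68.1, 66 and 67.3% of all genes passed at sham, low, medium and high loading. That choice of libraries used the region's own neuron genes, so these calls are not independent of it.

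**Figure D2:**
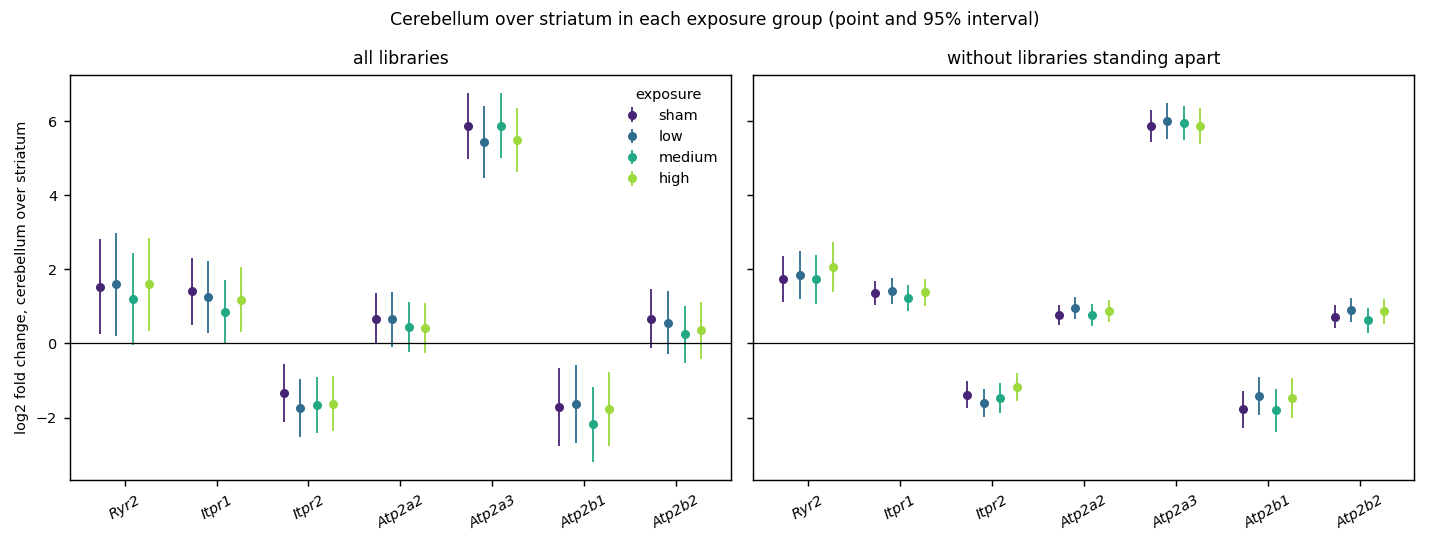
Log2 fold change of cerebellum over striatum for the 7 members in the 4 exposure groups, with 95% intervals, for all libraries (left) and without libraries standing apart (right). Atp2a3 lay above 5 in both panels, Itpr2 and Atp2b1 lay under 0, and the intervals were narrower on the right.

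Over all libraries, the other exposure groups gave 4 called members at low loading, 3 at medium and 5 at high, beside 37.2, 41.3 and 56.0% of all genes. At low loading 2 were higher and 2 lower, beside 18.4% and 18.8% of genes, and at medium loading 1 was higher and 2 were lower, beside 21.1% and 20.2%. At high loading 3 were higher and 2 lower, beside 33.2% and 22.8%. The comparison within rats gave the same directions. In the 29 rats with both regions, Itpr2 was lower in the cerebellum of 29 and Atp2b1 of 28, and Atp2a3 was higher in 28. Itpr1 was higher in the cerebellum of 24 rats, Atp2a2 and Atp2b2 of 22 and Ryr2 of 21. The median log2 difference within a rat was 5.92 for Atp2a3, 1.47 for Ryr2, 1.28 for Itpr1, 0.60 for Atp2a2, 0.56 for Atp2b2, -1.57 for Itpr2 and -1.90 for Atp2b1. In the 16 rats with no library standing apart, each member had 1 direction in all 16, except Ryr2, which was higher in the cerebellum of 15. The rat numbers were cut here into 4 runs of 15, a grouping that the labels do not state. The mean difference over all exposures kept its sign in all 4 runs for each member. Among sham rats alone, Ryr2, Atp2a2 and Atp2b2 were higher in the cerebellum in 3 of 4 runs, and in run 4, where cerebellum sham 48 was the only cerebellar sham library, their differences were -0.70, -0.84 and -1.55 log2 units. The other 4 members kept their sign in all 4 runs of sham rats.

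The mix of reads within pairs of listed members also differed between the regions. Other members of each family are left out of these pairs. An example is the plasma membrane pump Atp2b3, with means of 513 CPM in sham cerebellum and 113 CPM in sham striatum. These shares are of raw reads, not corrected for transcript length, so they compare regions and not the levels of 2 genes. Atp2a3 took a median of 23.5% of the reads of both listed reticulum pumps in the cerebellum (range 1.69 to 59.6%), against 0.807% in the striatum (0.362 to 3.48%). Of the reads of Atp2b1 and Atp2b2 together, Atp2b2 took 75.1% in the cerebellum (67 to 84.4%), against 36.9% in the striatum (29.8 to 58.4%). The ranges of the Atp2b2 share did not overlap, libraries standing apart included, whereas those of the Atp2a3 share did. How many other gene pairs separate the regions in this way was not counted. Itpr2 took 0.541% of the reads of both listed IP3 receptors in the cerebellum and 3.40% in the striatum. In the library labelled cerebellum low 22 the Itpr2 share was 35.7% and the Atp2a3 share was 1.69%.

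**Figure D3:**
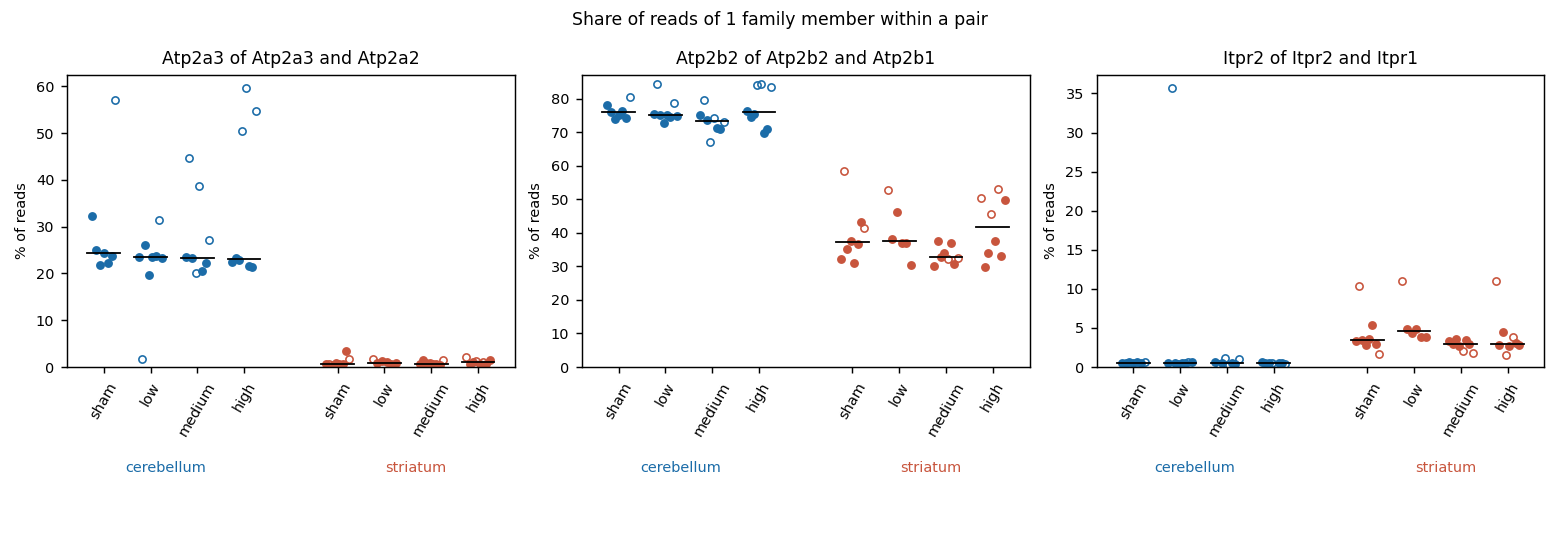
Share of raw reads (%) of 1 family member within a pair, per library, by region and exposure group, with a line at each group median and open circles for libraries standing apart. Atp2b2 held 67 to 84.4% of its pair in the cerebellum and 29.8 to 58.4% in the striatum.

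No member passed a test for exposure in either region. The 3 loadings share the sham libraries of their region, so their differences from sham are not independent. The edgeR quasi-likelihood test called 0 of 7 members at any loading in either region, and over all libraries 0 of 7 had an unadjusted p under 0.05. Without libraries standing apart, 1 of 7 members, Itpr1, was under 0.05 before adjustment at medium loading in each region. With the ribosomal and neuron list means as covariates this held in the striatum for Itpr2 at low and Atp2b1 at medium loading, and none of these passed after adjustment. DESeq2 and limma-voom also called 0 members. After adjustment the background was the same: 0% of 11946 cerebellar genes and 0% of 12267 striatal genes passed at low, medium or high loading. Before adjustment, over all libraries, 182, 170 and 1394 of the cerebellar genes were under 0.05 in that order. In the striatum these were 471, 453 and 141 genes. For the fits without libraries standing apart and with covariates, the count over all genes before adjustment is not given here.

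In the cerebellum the log2 fold change over sham ran between -0.19 and 0.17 at low loading, between -0.41 and -0.12 at medium loading and between -0.27 and -0.10 at high loading, with adjusted p of at least 0.859. The intervals were wide. For Ryr2 at medium loading the estimate was -0.41 ± 0.76 with a 95% interval of -1.97 to 1.14. Median Ryr2 levels were 537, 476, 284 and 471 CPM at sham, low, medium and high loading. Every cerebellar group held both low and high libraries, with lowest values of 27.1, 32.4, 29.9 and 22.7 CPM and highest values of 577, 689, 665 and 646 CPM in the same order. Median Atp2a3 levels were 594, 588, 582 and 554 CPM in that order.

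The sign of the cerebellar estimates turned when the libraries standing apart were left out. At high loading 7 of 7 estimates were negative over all libraries, and 6 of 7 were positive without those libraries, between -0.07 and 0.29. At medium loading 7 of 7 were negative over all libraries and 7 of 7 were positive without them, between 0.0025 and 0.28. None passed the test in either form. Itpr1 at medium loading averaged 4361 ± 235 CPM, against 3624 ± 789 CPM in sham (SD, n = 4 and n = 6 without libraries standing apart), a log2 fold change of 0.28 ± 0.12 (adjusted p = 0.815).

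In the striatum the estimates ran between -0.10 and 0.58 at low loading, between -0.17 and 0.42 at medium loading and between -0.25 and 0.24 at high loading. The largest belonged to Itpr2 at low loading, whose 6 libraries were tightly grouped. Their lowest, median and highest levels were 61, 67.9 and 71.0 CPM, against 17.9, 45.1 and 69.3 CPM in sham. The groups overlapped, with 3 of the 8 sham libraries inside the range of the low group. The log2 fold change was 0.58 ± 0.32 (adjusted p = 0.905), and 0.39 ± 0.21 without libraries standing apart (adjusted p = 0.594). In the 4 runs of rat numbers the mean log2 difference was 0.15, 0.77, 0.029 and 1.81. The low group was striatum low 7 alone in run 1 and striatum low 37 alone in run 3. At medium and high loading Itpr2 showed 0.14 and 0.13.

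Itpr1 had the largest striatal estimate at medium loading, 0.42 ± 0.29, with 1618 ± 437 CPM against 1221 ± 572 CPM in sham (SD, n = 8 each; adjusted p = 1.00). Without libraries standing apart it averaged 1844 ± 92.5 CPM at medium loading and 1401 ± 495 CPM in sham (SD, n = 6 each), a log2 fold change of 0.41 ± 0.19 that did not pass the test (adjusted p = 0.890). Ryr2 in the striatum had medians of 151, 118, 150 and 127 CPM at sham, low, medium and high loading, and its log2 fold change at high loading was -0.25 ± 0.40 with an interval of -1.05 to 0.56.

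**Figure D4:**
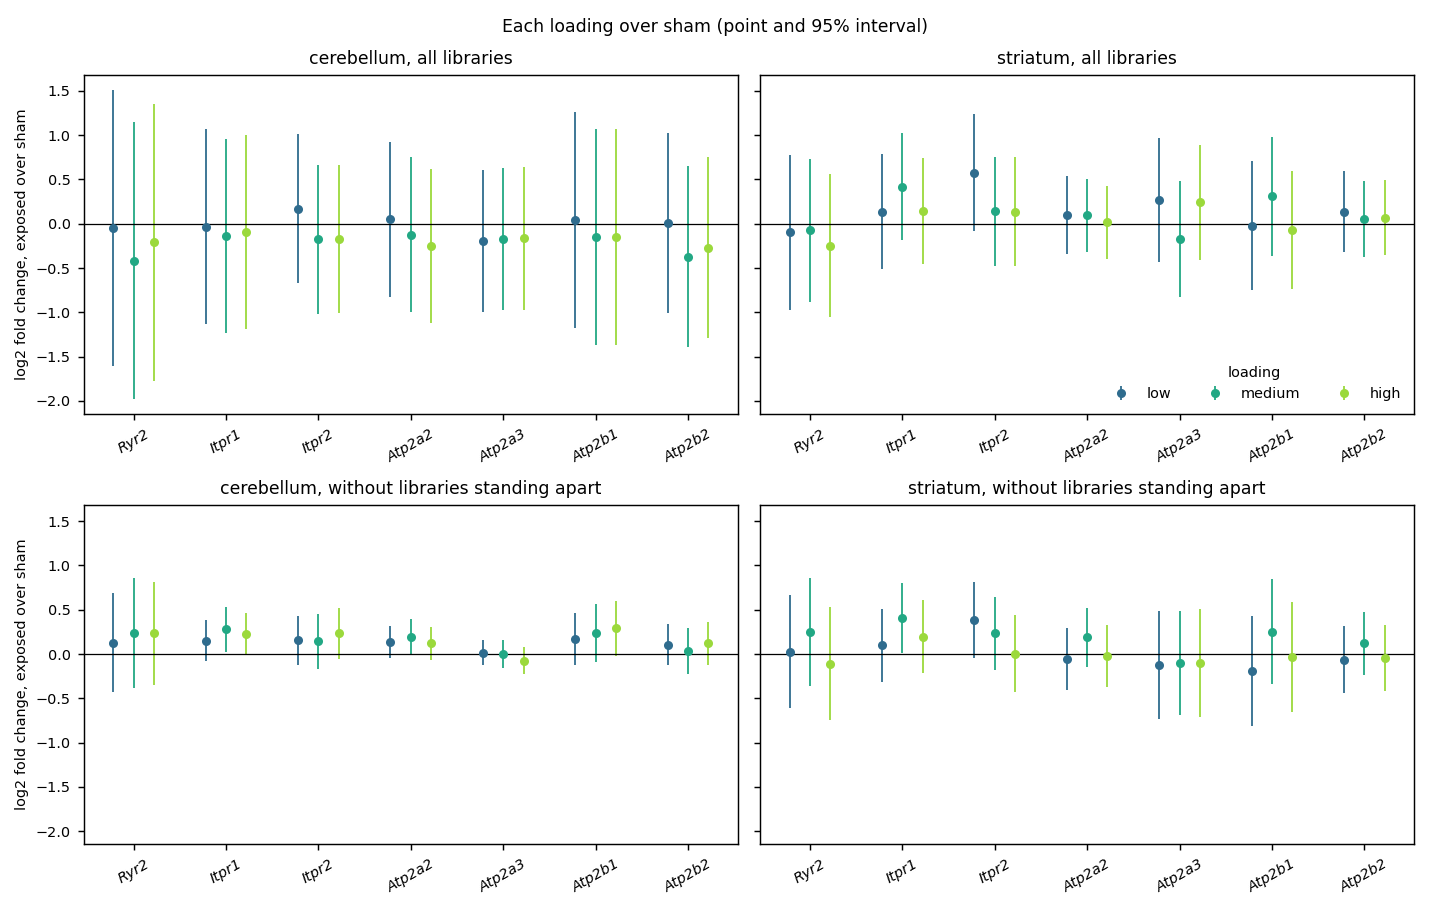
Log2 fold change over sham for the 7 members at low, medium and high loading, with 95% intervals, in the cerebellum (left) and striatum (right), for all libraries (top) and without libraries standing apart (bottom). All intervals over all libraries include 0, and those of the cerebellum narrow in the lower panel.

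Tests over the whole dose series called no member either. For any difference among the 4 groups, adjusted p was at least 0.996 in the cerebellum (0% of genes called) and 1.00 in the striatum, where 0.0245% of genes were called. Those 3 genes, named after their values were seen, were Ttr, Slc4a5 and Kl, which are abundant in choroid plexus. Without rat 17, whose striatal library was high in the choroid plexus list, 0 genes were called in this striatal test. Without libraries standing apart 0 were called as well. For a linear trend with loading, the steepest member slopes were -0.032 log2 units per percent for Atp2b2 in the cerebellum and -0.021 for Ryr2 in the striatum, with 0% of genes called by edgeR in either region. DESeq2 called 840 of 11946 cerebellar genes in the trend and 43 in the test of any difference, with 0 members among them. The change over sham did not pass a test of difference between the regions for any member at low (0% of genes called), medium (0%) or high loading (0.00793%, which was Ttr alone). The largest such difference was -0.56 ± 0.62 for Itpr1 at medium loading. Without rat 17 or without libraries standing apart, the test of difference between the regions called 0 genes at high loading, so Ttr lost its call.

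In the cerebellum the libraries standing apart were low in most members. In those 10 libraries Ryr2 ran between 22.7 and 82.6 CPM, against 104 to 689 CPM in the other 21. Atp2b2 ran between 110 and 392 CPM in the 10 and between 608 and 1096 CPM in the 21, and Atp2a2 between 310 and 1162 CPM in the 10 and between 1409 and 2383 CPM in the 21. None of these ranges overlapped, but the 10 libraries were set apart by their ribosomal protein and neuron gene levels. The share of all genes with ranges that do not overlap in this split was not counted. Atp2a3 kept 205 to 656 CPM in 9 of the 10, and cerebellum low 22 was the other. In the 8 striatal libraries the separation was weaker: Itpr1 ran between 302 and 1257 CPM, against 727 to 2133 CPM in the other 22. Some of the 8 were high instead: striatum sham 17 had the highest Ryr2 level of the sham group (232 CPM), and striatum high 13 had the highest Itpr2 (72.0 CPM) and Atp2a3 (28.2 CPM) levels of all 30 striatal libraries.

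**Figure D5:**
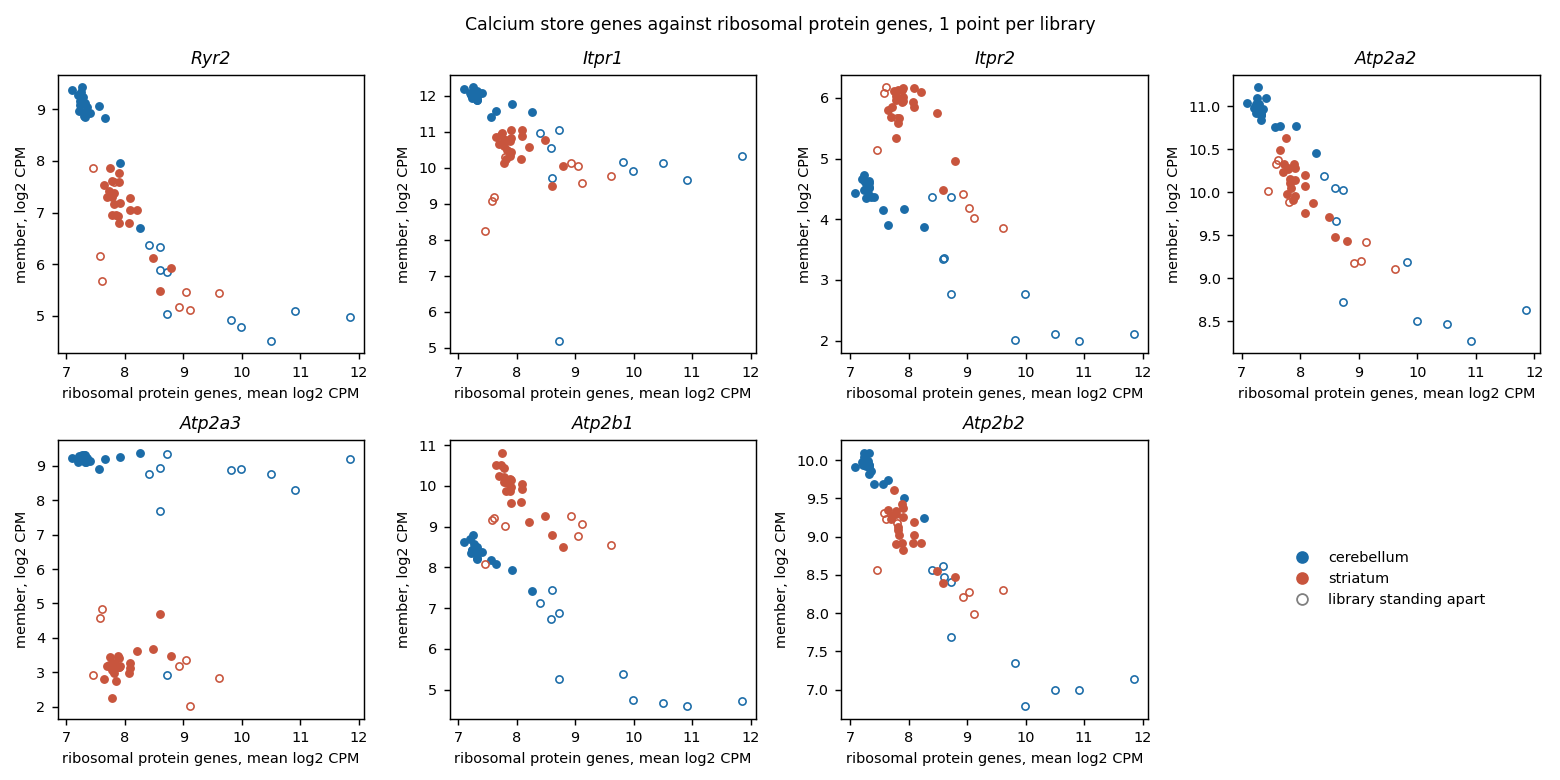
Log2 CPM of each member against the mean log2 CPM of 75 ribosomal protein genes, 1 point per library. The list mean was scaled within each region. In the cerebellum, the libraries at the right, high in ribosomal protein genes, are low in 6 members, while Atp2a3 stays above every striatal library in all but cerebellum low 22.

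Genes whose levels followed a member most closely over the libraries of a region are given by Spearman's rho of log2 CPM, as a description, since libraries share the spread just described. In the cerebellum (31 libraries) Ryr2 went with Ash1l, Htt and Herc2 (highest rho 0.969), Itpr1 with Arl5b (0.954) and Cltc (0.948), and Itpr2 with Dpy19l4, Hipk2 and Slc7a2 (0.931). Atp2a2 went with Pja2, Prepl and Lmln (0.964), Atp2b1 with Myh10, Rims1 and Ubn1 (0.974), and Atp2b2 with Mapt, Supt6h and Tnr (0.972). Atp2a3 had partners with a lower rho, Sbk1, Icmt and Dcun1d2 (0.869). In the striatum (30 libraries) the partners of Ryr2 were Zbtb18, Zmynd8 and Rimbp2 (0.881), those of Itpr1 were Phactr1, Cyfip2 and Dlg2 (0.941), and those of Itpr2 were Kif5b, Scd2 and Sema3d (0.922). Atp2a2 and Atp2b2 were among each other's top 3 (0.934), beside Fam210a for Atp2a2 and Camta1 and Cnnm1 for Atp2b2. Atp2b1 went with Gpr158, Lrrk2 and Strn (0.966) and Atp2a3 with Lyn, Rgs6 and Ifit2 (0.703). Without libraries standing apart, the striatal partners of Ryr2 became Luzp1, Myh10 and Cnnm1 (0.951). Those of Atp2b1 became Spock3, Neto1 and Robo2 (0.977), and those of Atp2a3 Csrp2, Dhrs11 and Polr2j (0.723). Cerebellar Ryr2 then went with Dusp11, Ash1l and Lpcat3 (0.934). The top 3 of striatal Itpr1 and cerebellar Atp2b1 stayed the same, and those of the other members changed in part.

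The rest of the calcium store pathway was read from 9 lists of 125 genes, of which 109 were tested between the regions. In sham rats 36 were higher and 24 lower in the cerebellum, with a median log2 fold change of 0.06, against 0.09 over all genes. The background for this and the list counts that follow is 22.1% of genes higher and 20.9% lower, and no list was tested against it. Among other release channels and pumps, 5 of 11 were higher and 1 lower. The plasma membrane pump Atp2b3 (PMCA3) stood at 513 ± 257 CPM in sham cerebellum and 113 ± 60.6 CPM in sham striatum (SD, n = 7 and n = 8; log2 fold change 2.16 ± 0.57), and the endolysosomal channels Tpcn1 and Tpcn2 were also higher (0.70 and 1.5). The Golgi pump Atp2c1 was the lower one (-0.41).

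Partners of the release channels split, with 7 of 21 higher and 6 lower. Homer3, a scaffold that links group I glutamate receptors to IP3 receptors and that also counts among the Purkinje markers, had 330 ± 93.1 CPM in sham cerebellum and 29.6 ± 9.17 CPM in sham striatum (SD, n = 7 and n = 8; log2 fold change 3.47 ± 0.27). Its relative Homer1 (-2.03), the receptor-binding immunophilin Fkbp1a (-1.40) and the junction protein Jph3 (-0.70) were lower in the cerebellum. Erp44, a luminal regulator of IP3 receptor type 1, and the kinase Prkg1 were higher (0.55 and 1.85). Of the genes that make or remove IP3, 6 of 16 were higher and 5 lower. The phospholipase Plcb4 (2.56), the IP3 phosphatase Inpp5a (2.41) and the G protein Gna14 (1.80) were higher, and the receptors Grm5 (-5.95) and Chrm1 (-6.47) and the phospholipase Plcb2 (-1.66) were lower.

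Calcium-binding proteins of the store lumen had 4 of 16 genes higher and 4 lower. Casq1 and Casq2, the calsequestrins, were higher (1.71 and 1.67), as was Hrc (1.85), and Rcn1 (-3.14), Nucb2 (-0.59) and Rcn2 (-0.34) were lower. Store-operated entry had 5 of 14 higher, among them the channel subunit Orai3 (1.93) and Cracr2b (1.72), and 2 lower, Trpc4 (-5.04) and Septin7 (-0.33). Sodium-calcium exchangers had 2 of 7 higher, Slc8a1 (1.52) and Slc24a3 (0.73), and 1 lower, Slc24a4 (-4.31). Mitochondrial uptake had 3 of 9 higher, among them the uniporter pore Mcu (0.62), with Vdac2 (0.65) and Micu3 (0.79), and 1 lower, Micu2 (-0.38).

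Cytosolic buffers had 4 of 11 higher, among them Pvalb (4.61), Calb2 (4.40) and Calb1 (2.11), which are also markers of Purkinje or granule cells, and 4 lower, among them Hpca (-3.61), Necab2 (-3.31) and Necab1 (-6.71). The pump regulators had 4 of 10 genes tested and 0 called by edgeR. With exposure, edgeR and limma-voom called 0 of these genes at any loading, in the dose trend or in the test of any difference, in either region, and the lowest adjusted p with edgeR was 0.0755, in the cerebellar trend. DESeq2 called 0 at each loading and 0 in the striatum, but in the cerebellum it called 3 in the trend (Pcp4, Plcg2 and Pvalb) and 1 in the test of any difference (Pcp4), named after their values were seen. These stood beside 840 and 43 of 11946 genes. For the difference between the regions in the change at medium loading, DESeq2 called 1, Trpc4 (adjusted p = 0.0273), beside 8 of 12616 genes.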

How the data were processed

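The authors deposited raw read counts per gene, with a table for each region. The authors used FastQC, HISAT2 and the rn6 build, per the submitters' processing notes, with no versions. The counting tool, annotation and strand setting were not given in the sources used here, so reads of overlapping genes cannot be told apart. Gene IDs were matched to symbols through RefSeq (14063 of 14129 cerebellar and 14163 of 14231 striatal genes). Both tables held only genes with 10 or more reads in all. Depth limits precision through the counts per library. Intervals cover the spread between libraries, 1 per rat.

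Library sizes were corrected with TMM factors, and genes were filtered with filterByExpr, which left 11946 genes in the cerebellum, 12267 in the striatum and 12616 in the joint fit. All 7 measured members passed. Tests were two-sided, with edgeR 4.0.16 (quasi-likelihood, robust) in R 4.3.3, with Benjamini-Hochberg adjustment over all genes and a threshold of 0.05. Exposure was tested within a region in 1 fit of 4 groups, and region and region-by-exposure in 1 fit of 61 libraries. Levels are CPM on the joint scaling, and log2 CPM used a prior count of 2. List means and correlations between genes used log2 CPM scaled within each region. The procedure was also run on simulated counts, drawn independently for each library. They held no libraries standing apart and no pairs from the same rat, so the run does not cover these features. Alternatives were RLE size factors, DESeq2 1.42.0, limma-voom 3.58.1 with quality weights, no filter, a mean CPM of at least 1, a term for the run of 15 rat numbers, a term for the rat, only the groups compared, list means as covariates, and leaving out single libraries, those standing apart or those of rat 17.

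The text names the 8 members, up to 3 genes per direction of each pathway list by smallest p between regions in sham, and up to 3 genes most like each member; some genes that these rules select are not reported here. The members, lists and alternatives were chosen with earlier results of these data known. Rat numbers shared by both regions are taken as the same rat, since the titles share group and number. Deviations from group means over genes correlated in these 29 pairs with a median of 0.35 (range -0.24 to 0.82, and 21 over 0.1). That a run of 15 numbers is a cohort is inferred.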

Additional observations from a re-analysis of the deposited data

Results flagged for a closer look

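A sample stood far from the others of its group in 6 of 56 combinations of member, region and exposure group, where chance alone would give about 2.8. The members were read in the same libraries, so the combinations are not independent, and 6 was not tested against 2.8. In the cerebellum these were low values in libraries standing apart. Atp2a3 was 7.28 CPM in cerebellum low 22, with the next library of its group at 489 CPM. Atp2a2 was 363 CPM in cerebellum sham 48, with the next at 1409 CPM. Itpr2 was 9.89 CPM in cerebellum low 6, with the next at 17.7 CPM.

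In the striatum all were high values of Atp2a3. It was 28.2 CPM in striatum high 13, 23.6 CPM in striatum low 20 and 25.8 CPM in striatum sham 48, and the next libraries of these groups were at 10.8, 11.9 and 9.98 CPM. In the same libraries the mean log2 CPM of the list of septum, pallidum and thalamus markers was 5.78, 5.83 and 5.48, against a striatal median of 3.30. The part of that list in the Atp2a3 levels was not tested.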

How the results depend on the processing

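Between the regions, no member changed direction under any alternative except Atp2b2 at high loading, which was -0.087 with a replicate block for the rat. That block left 3 called members at high loading, beside 6777 of 12595 genes. At low and medium loading 7 members were called without libraries standing apart, beside 8532 and 8274 of 12529 genes. With limma-voom 7 were called at each of these loadings, beside 9340 and 8819 of 12616 genes. In sham rats the Ryr2 call also ended with RLE size factors, a term for the run, a mean CPM of at least 1, or without rat 17 (adjusted p = 0.0534, 0.0536, 0.0509 and 0.0530). The causes were not tested. The block changed no call in medium rats, and in sham rats only that of Ryr2. For the exposure comparisons no paired analysis was possible because each rat had 1 exposure.

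With exposure, 0 members were called under every alternative run. Counts over all genes did depend on the tool in the cerebellum: DESeq2 called 840 genes in the dose trend and 43 in the test of any difference, against 0 and 0 with edgeR. In the striatum the test of any difference called 3 genes with edgeR, 11 with no filter, 10 at a mean CPM of at least 1 and 0 with DESeq2. It also called 0 with limma-voom, a term for the run, list means as covariates, without rat 17 and without libraries standing apart. Member estimates lay between -0.41 and 0.58, and in fits other than those without 1 library 58 turned sign and 362 did not. Without libraries standing apart, these log2 fold changes over sham in the cerebellum turned to the opposite sign: at low loading Ryr2 0.13, Itpr1 0.15 and Atp2a3 0.017, at medium loading Ryr2 0.24, Itpr1 0.28, Itpr2 0.14, Atp2a2 0.19, Atp2a3 0.0025, Atp2b1 0.24 and Atp2b2 0.033, at high loading Ryr2 0.23, Itpr1 0.23, Itpr2 0.23, Atp2a2 0.12, Atp2b1 0.29 and Atp2b2 0.12. Without libraries standing apart, those that turned in the striatum were at low loading Ryr2 0.028, Atp2a2 -0.058, Atp2a3 -0.12 and Atp2b2 -0.062, at medium loading Ryr2 0.24, at high loading Atp2a2 -0.018, Atp2a3 -0.10 and Atp2b2 -0.047. With the list means as covariates, those that turned in the cerebellum were at low loading Itpr2 -0.014, at medium loading Itpr1 0.16, Atp2a2 0.073, Atp2a3 0.078 and Atp2b1 0.15, at high loading Ryr2 0.35, Itpr1 0.23, Itpr2 0.065, Atp2a2 0.061, Atp2b1 0.18 and Atp2b2 0.13. With the list means as covariates, those that turned in the striatum were at low loading Atp2b1 0.050, at medium loading Atp2a3 0.014, at high loading Atp2b1 0.082. With limma-voom, those that turned in the cerebellum were at low loading Itpr1 0.037, at medium loading Itpr1 0.093 and Atp2a2 0.037, at high loading Itpr1 0.11, Itpr2 0.090 and Atp2b1 0.074. With limma-voom, those that turned in the striatum were at low loading Itpr1 -0.0003, Atp2a2 -0.097 and Atp2b2 -0.097, at medium loading Ryr2 0.11 and Atp2a3 0.24, at high loading Atp2a2 -0.0092 and Atp2b2 -0.0003. With a term for the run, those that turned in the cerebellum were at low loading Atp2b1 -0.031 and Atp2b2 -0.022. With a term for the run, those that turned in the striatum were at low loading Atp2b1 0.029. Without rat 17, those that turned in the striatum were at low loading Ryr2 0.054 and Itpr1 -0.0099, at medium loading Ryr2 0.076, at high loading Itpr1 -0.0014. Over fits without 1 library each, the ranges that crossed 0 in the cerebellum were at low loading Ryr2 -0.26 to 0.13, Itpr1 -0.19 to 0.16, Atp2a2 -0.12 to 0.20, Atp2b1 -0.16 to 0.21 and Atp2b2 -0.19 to 0.15, at medium loading Atp2b1 -0.35 to 0.0095, at high loading Itpr1 -0.26 to 0.040 and Atp2b1 -0.35 to 0.022. Over fits without 1 library each, the ranges that crossed 0 in the striatum were at low loading Ryr2 -0.32 to 0.054, Itpr1 -0.0099 to 0.29, Atp2a3 -0.069 to 0.62 and Atp2b1 -0.15 to 0.12, at medium loading Ryr2 -0.24 to 0.076, Atp2a2 -0.0023 to 0.19, Atp2a3 -0.28 to 0.19 and Atp2b2 -0.054 to 0.15, at high loading Itpr1 -0.0014 to 0.31, Atp2a2 -0.070 to 0.11, Atp2a3 -0.095 to 0.60, Atp2b1 -0.25 to 0.071 and Atp2b2 -0.0083 to 0.15. Depth limits most the members with few reads, Atp2a3 in the striatum (as few as 28 in a library) and Itpr2 in the cerebellum (as few as 20), and the part of counting error in their spread was not tested.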
